A study of Mus musculus with 4 samples.

Results

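Among CD11b+ cells sorted from MC38 tumors, a transplanted mouse colon carcinoma, 1648 of 25333 droplets held RNA of neutrophils and of macrophages together. A droplet is the partition that receives 1 cell barcode in the 10x Genomics method, and it can hold 1 cell, several cells, or a cell with RNA or fragments of another. A droplet was counted as mixed where it held at least 10 UMIs of S100a8 plus S100a9 and at least 10 UMIs of C1qa, C1qb and C1qc together. A UMI (unique molecular identifier) stands for 1 captured RNA molecule. The WT library held 1141 mixed droplets of 10193 and the VISTA KO library held 507 of 15140. The droplets were thus selected on the UMIs of these 5 genes, whose levels describe the choice and support nothing further.

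Both groups came from bone marrow chimera mice of the C57/BL6 strain that had been reconstituted for 6 weeks and then given MC38 tumors. The WT group consists of cells from WT marrow, and the VISTA KO group of cells from marrow without VISTA, a checkpoint receptor that restrains immune cells and is the product of the Vsir gene. The tumors were taken at 9 to 10 mm and pooled before digestion. The CD45.1 and CD45.2 alleles separated the 2 genotypes, and living CD11b+ cells were sorted. The number of cells loaded is given as 10,000 in the series text, while the sample labels write it with an exponent that can be read as a larger number, and 10241 WT and 15257 VISTA KO barcodes were deposited, so the loading that sets how often droplets hold several cells is uncertain. From the droplets of each group 1 RNA library and 1 antibody tag library were sequenced. With 1 library per group of pooled tumors there was no replicate, no test was run, and every 95% interval covers counting error only. The sources used here do not give the number of mice, their age, the congenic marker of each genotype or the deleted part of Vsir.

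Neutrophils are short-lived granulocytes that store S100a8 and S100a9 protein (calprotectin) in the cytoplasm and enter tumors along chemokine gradients read by the receptor Cxcr2. Tumor macrophages arise largely from blood monocytes and make the complement proteins C1qa, C1qb and C1qc, which mark dying cells for uptake. Macrophages engulf aged and dying neutrophils through receptors such as Mertk and Axl, a process called efferocytosis, and neutrophils can also adhere to macrophages and monocytes.

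The surface of each droplet's content was read with 3 antibodies whose oligonucleotide tags were counted like RNA. Ly6G is the protein that defines mouse neutrophils, Ly6C is high on inflammatory monocytes and lower on neutrophils, and CD11c is an integrin of dendritic cells and macrophages. The tag sequences are shown because the Ly6G tag is the reading of neutrophils that the choice of droplets did not use, and the capitals mark the whole counted barcode, 5′ to 3′.
Ly6G: ACATTGACGCAACTA
Ly6C: AAGTCGTGAGGCATG
CD11c: GTTATGGACGCTTGC

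Both sets of chosen genes were far above the minimum in most mixed droplets. The S100a8 and S100a9 sum ran from 10 to 998 UMIs with a median of 80 in the WT library, and from 10 to 608 with a median of 57 in the VISTA KO library. The C1q sum ran from 10 to 445 with a median of 66 in WT, and from 10 to 423 with a median of 75 in VISTA KO. Few droplets lay at the borders. In WT, 25 mixed droplets had 10 or 11 S100 UMIs, with a median of 72 Ly6G tags, and 29 C1q-high droplets just outside, with 8 or 9, had a median of 73. In VISTA KO the corresponding 19 and 24 droplets had medians of 53 and 44.5 Ly6G tags. On the C1q side, 37 WT mixed droplets had 10 or 11 C1q UMIs and 42 just outside had 8 or 9, with medians of 82 and 89 Ly6G tags. In VISTA KO these were 8 and 18 droplets with medians of 60 and 48. The droplets just inside and just outside the limits thus had similar tags. Farther from the limit the C1q-high droplets differed: those with 0 S100 UMIs (1312 in WT and 4453 in VISTA KO) had medians of 7 and 6 Ly6G tags, those with 3 to 9 (175 and 127) had 63 and 42, and those with 100 or more (491 and 175) had 107 and 53.

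**Figure D1:**
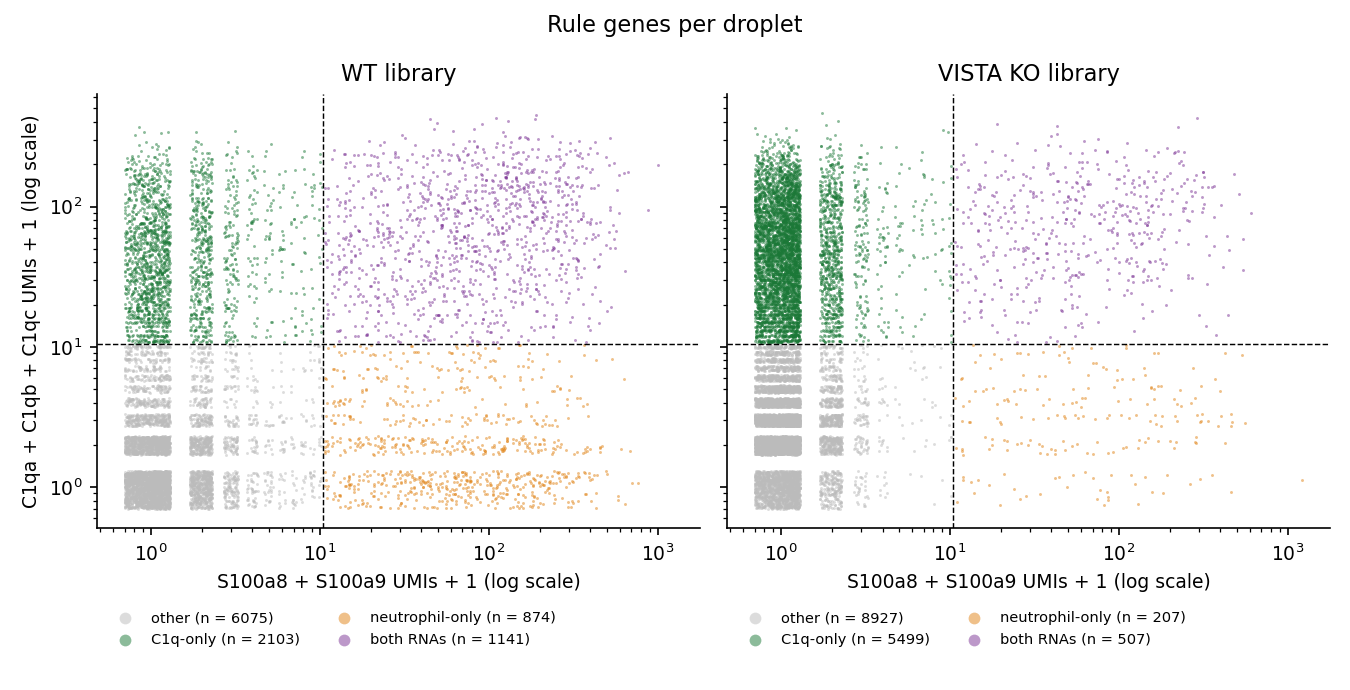
Each point is 1 kept droplet, with its S100a8 plus S100a9 UMIs on the x axis and its C1qa, C1qb and C1qc UMIs on the y axis, both plus 1 with a small random shift and on log scales. Dashed lines mark the limit of 10 UMIs, and the upper right field holds the 1141 WT and 507 VISTA KO droplets with both RNAs, spread without a gap at either line.

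Mixed droplets took 11.2% of kept droplets in WT (Clopper-Pearson interval 10.6 to 11.8) and 3.35% in VISTA KO (3.07 to 3.65). Another 874 WT and 207 VISTA KO droplets passed the S100 limit alone and are called neutrophil-only, and 2103 and 5499 passed the C1q limit alone and are called C1q-only. The VISTA KO library therefore held more C1q-high and fewer S100-high droplets of either kind. Among S100-high droplets, 56.6% in WT (54.4 to 58.8) and 71.0% in VISTA KO (67.5 to 74.3) were also C1q-high. Among S100-low droplets the C1q-high shares were 25.7% and 38.1%. These shares come from the sums that chose the droplets, in 1 library each and without matched depth, and are given as a description. After thinning each droplet to 1000 UMIs, with a limit of 2 UMIs on each sum, 10.5% of WT droplets (561 shallower ones left out) and 3.25% of VISTA KO droplets (1561 left out) held both.

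NK cells should lack both gene sets, and their shares are given for comparison. Of 660 WT droplets with at least 3 UMIs of NK cell markers, 12.0% (9.59 to 14.7) were C1q-high, 5.15% (3.59 to 7.12) were S100-high and 4.24% (2.84 to 6.07) were both. Of 599 such droplets in VISTA KO the shares were 19.5%, 1.84% and 1.67% (0.803 to 3.05). Their median depths were 2622 and 3070 UMIs, against 12272 and 13011 in the mixed droplets, so the shares are not at a matched depth. The shares of all kept droplets with both RNAs were above those of NK marker droplets in each library. All kept droplets include neutrophils and macrophages, and the shares come from the sums that chose the droplets. The comparison therefore cannot show how often both RNAs meet by background, and it supports nothing further. A total of 47 barcode sequences occurred in both libraries, of which 4 were mixed in either library and 0 were mixed in both. No doublet caller was run and no droplet was removed as a doublet.

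Markers outside the choice were present on both sides. At least 3 UMIs of the 12 other neutrophil markers were found in 1137 of 1141 WT and 504 of 507 VISTA KO mixed droplets. At least 3 UMIs of the 12 other macrophage markers were found in 1139 of 1141 and 507 of 507. The macrophage markers also reached 3 UMIs in 67.3% of WT and 87.4% of VISTA KO neutrophil-only droplets. In droplets that passed neither limit these shares were 79.1% and 92.4%, so this count separates the classes little. Among C1q-only droplets the neutrophil markers reached 3 UMIs in 30.4% in WT and 20.6% in VISTA KO. The mean neutrophil marker sum per droplet was 46.8 UMIs in WT mixed droplets, 34.0 in neutrophil-only and 4.15 in C1q-only droplets. In VISTA KO the same means were 32.6, 31.1 and 2.06. The macrophage marker sum averaged 144 in WT mixed droplets against 80.9 in C1q-only and 27.3 in neutrophil-only droplets, and 151 against 87.0 and 36.5 in VISTA KO. The droplets therefore carry the named markers of both cell types, and the label holds for RNA content without saying how many cells a droplet held.

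Surface Ly6G was high in the classes with neutrophil RNA. Mixed droplets had a median of 91 Ly6G tags in WT (0 to 566) and 53 in VISTA KO (10 to 274). Neutrophil-only droplets had medians of 69.5 and 44, C1q-only droplets 9 and 6, and all other droplets 4 and 4. At least 20 Ly6G tags were found on 98.9% of WT mixed droplets (98.1 to 99.4) and 98.4% of VISTA KO mixed droplets (96.9 to 99.3), against 21.1% and 9.82% of C1q-only droplets. The mixed droplets lay with the neutrophil-only droplets in both libraries, and their quartile ranges did not overlap those of C1q-only droplets. The Ly6G medians of both S100-high classes were lower in the VISTA KO library. Within the mixed droplets the relation was weak: Spearman's rho of Ly6G tags across droplets was 0.15 in WT and 0.03 in VISTA KO with the S100 sum, and 0.34 and 0.09 with the neutrophil marker sum.

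The other tags were higher in mixed droplets than in either comparison class. Median Ly6C tags were 2839 in WT mixed droplets, 1045 in neutrophil-only and 1443 in C1q-only droplets, and 2733, 1014 and 1196 in VISTA KO. Median CD11c tags were 45, 14 and 20 in WT, and 56, 18 and 23 in VISTA KO. Depth moved with the class in the same way: the median gene UMIs were 12272, 4023.5 and 6281 in WT, and 13011, 3782 and 6029 in VISTA KO. The median number of genes was 3131 in WT and 3275 in VISTA KO mixed droplets, against 1550 and 1592 in neutrophil-only and 2035 and 2041 in C1q-only droplets. The median mitochondrial share of mixed droplets was 0.745% in WT and 0.954% in VISTA KO.

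**Figure D2:**
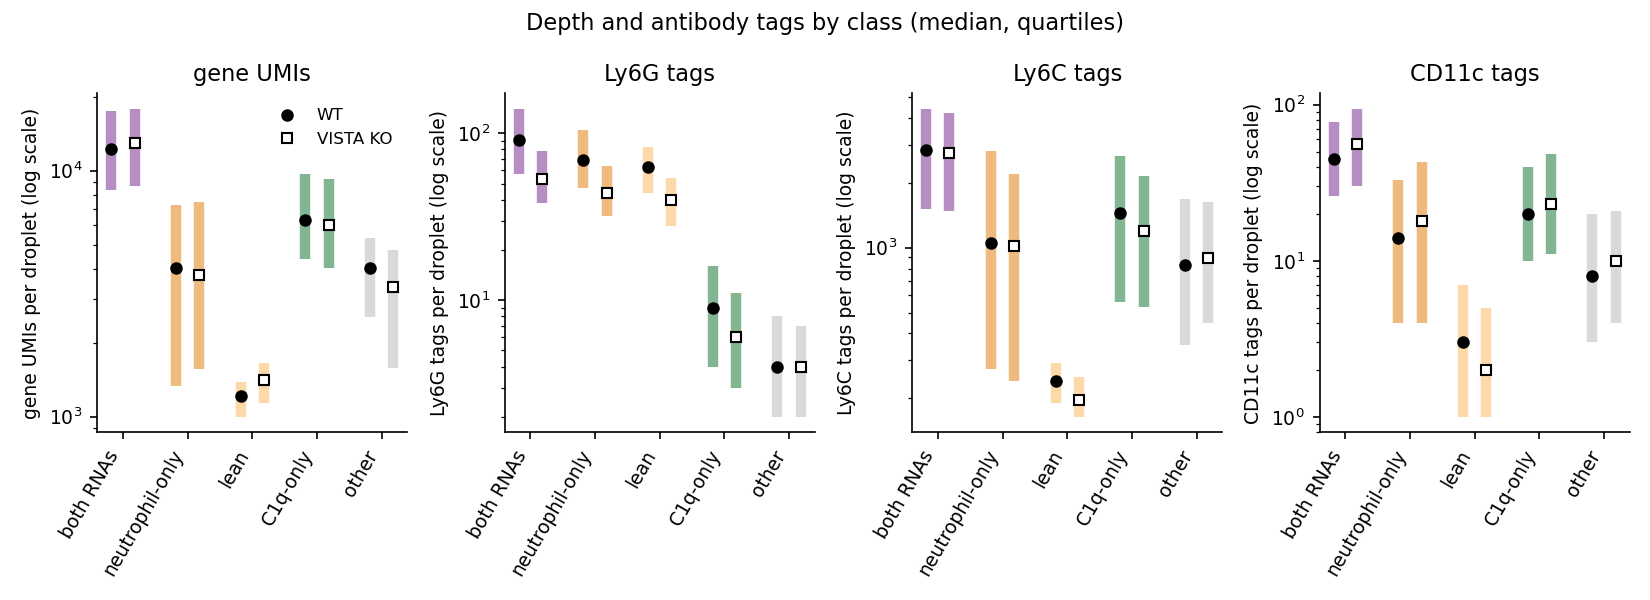
Medians (points) and quartile ranges (bars, lower to upper quartile) of gene UMIs and of Ly6G, Ly6C and CD11c tags per droplet, by class and library, on log scales. Ly6G is high in mixed, neutrophil-only and lean droplets and low in C1q-only droplets, while Ly6C and CD11c are highest in mixed and lowest in lean droplets.

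The neutrophil-only class was itself uneven. A group of its droplets, here called lean, held under 10 UMIs of the monocyte and macrophage marker lists together: 269 of 874 in WT (30.8%) and 54 of 207 in VISTA KO (26.1%). Lean droplets had little RNA, with medians of 1215 and 1411.5 gene UMIs, 242 and 197 Ly6C tags and 3 and 2 CD11c tags. Their Ly6G tags stayed high, at medians of 63 and 40. The nuclear RNA Malat1 took 2.68% and 2.65% of their UMIs, against 1.01% and 1.18% in mixed droplets. The rest of the neutrophil-only class also held monocyte or macrophage RNA, and the class as a whole averaged 57.2 monocyte marker UMIs in WT and 44.9 in VISTA KO, against 2.93 and 3.57 in lean droplets. The lean group was defined after the data had been seen, and values against both are given where they differ.

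Droplets with neutrophil RNA also occurred below the S100 limit. Of C1q-only droplets, 443 in WT and 540 in VISTA KO had at least 20 Ly6G tags. In WT they averaged 5.39 UMIs of G0s2, an inhibitor of lipolysis that is abundant in neutrophils, against 0.116 in the 1660 C1q-only droplets with fewer Ly6G tags and 20.5 in mixed droplets. In VISTA KO the same means were 1.90, 0.0351 and 12.2. Hdc, the histamine-forming enzyme, averaged 1.61 against 0.0717 in WT and 1.17 against 0.0871 in VISTA KO. Their neutrophil marker sums, 13.7 against 1.62 in WT and 8.16 against 1.40 in VISTA KO, lay between those of the other C1q-only droplets and the mixed ones. Of all droplets with at least 20 Ly6G tags, 51.2% in WT and 67.6% in VISTA KO were C1q-high. Of all kept droplets, 3244 of 10193 and 6006 of 15140 were C1q-high. Mixed droplets made up 1128 of the 1571 WT and 499 of the 1039 VISTA KO droplets with both traits. C1q-only droplets with at least 20 Ly6G tags were also deeper than those with fewer. Their median gene UMIs were 9061 against 5946 in WT and 10612 against 5771 in VISTA KO, so the tag cut also follows depth.

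On average, mixed droplets held about as much RNA as the means of neutrophil-only and C1q-only droplets of their library added together, while single droplets ranged from 1516 to 46099 UMIs in WT and from 1898 to 44204 in VISTA KO. In WT the mean was 13632 gene UMIs against a sum of 12546 (5055 plus 7491), a ratio of 1.09. In VISTA KO it was 14083 against 12260 (5059 plus 7200), a ratio of 1.15. The Ly6G tags came to 1.03 times the sum in both libraries, the Ly6C tags to 0.866 times in WT and 1.01 times in VISTA KO, and the CD11c tags to 0.958 and 0.971 times. With lean droplets as the neutrophil part, the ratios were larger: 1.56 and 1.60 for gene UMIs, 1.48 and 1.69 for Ly6C tags and 1.38 and 1.5 for CD11c tags. Against lean droplets the mixed droplets therefore held more macrophage and monocyte RNA than an average C1q-only droplet, with macrophage marker sums at 1.76 and 1.68 times.

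Gene by gene, the mixed droplets lay close to the same sum. The value compared is the mean UMIs of a gene per mixed droplet over the sum of its means per neutrophil-only and per C1q-only droplet, for genes with at least 100 UMIs in the mixed droplets, and a gene counts as higher or lower past 1.5-fold. In WT, 43 of 7754 genes were higher (0.555%) and 3 were lower (0.0387%), with a median log2 ratio of 0.13. In VISTA KO, 82 of 6062 were higher (1.35%) and 2 were lower (0.033%), with a median of 0.20. The middle 90% of genes ran from -0.10 to 0.38 in WT and from -0.06 to 0.46 in VISTA KO. Most higher genes were sparse, 35 of the 43 and 68 of the 82 having under 200 UMIs, and a gene near the minimum passes it more easily when its mixed count is high. With lean droplets in the sum the medians were 0.67 and 0.73, 5778 and 4692 genes were higher, and 2 and 11 were lower. When all classes were limited to droplets of 5000 to 20000 UMIs 2 WT and 0 VISTA KO genes were higher and 4065 and 2314 lower. A window shared by all classes lowers a mixed droplet against the sum by construction, so these counts do not bear on the match.

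**Figure D3:**
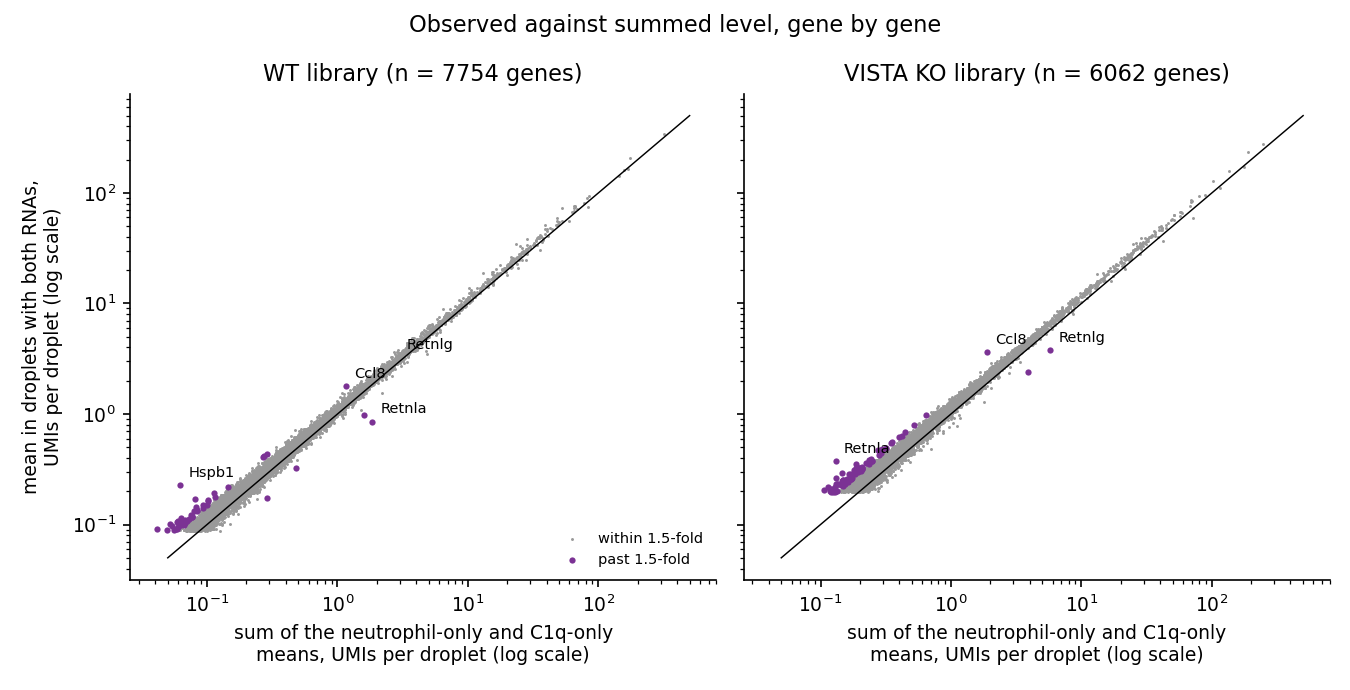
Each point is 1 gene, with the sum of its mean UMIs per neutrophil-only and per C1q-only droplet on the x axis and its mean per mixed droplet on the y axis, on log scales with the line of equal values. Most genes lie on or just above the line (median log2 ratio 0.13 in WT and 0.20 in VISTA KO), and purple points are past 1.5-fold.

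Of 6052 genes compared in both libraries, 1 was higher in both and 0 were lower in both. The gene higher in both was Ccl8 (chromosome 11, 82115185 to 82116799 on mm10), a chemokine for monocytes and T cells made by some macrophages. In WT it averaged 1.79 UMIs in mixed, 0.175 in neutrophil-only and 0.979 in C1q-only droplets, a log2 ratio of 0.63. In VISTA KO it averaged 3.61, 0.101 and 1.79, a log2 ratio of 0.93. The 10 highest droplets held 52.6% of the Ccl8 UMIs of WT mixed droplets and 77.2% of those of VISTA KO. Ccl8 was found in 17.6% of mixed against 9.94% of C1q-only droplets in WT, and in 24.1% against 16.9% in VISTA KO.

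Retnla (chromosome 16, 48842609 to 48844461), a secreted protein of alternatively activated macrophages, went opposite ways. In WT it averaged 0.852 in mixed, 0.294 in neutrophil-only and 1.54 in C1q-only droplets (log2 ratio -1.11). In VISTA KO it averaged 0.375, 0.0338 and 0.0969 (log2 ratio 1.52). It was found in 4.82% of WT and 3.16% of VISTA KO mixed droplets, and 10 droplets held 74.1% and 96.8% of its UMIs. Hspb1, a small heat shock protein, had the highest WT ratio (1.87) and came from 9 mixed droplets, 1 of which held 55% of the UMIs. For Retnla and Hspb1 the ratio thus rests on few droplets, which counting intervals do not cover.

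Cdyl, a chromatin reader among the highest VISTA KO ratios, was spread over many droplets. It averaged 0.290 UMIs in VISTA KO mixed droplets against 0.029 and 0.117 in the comparison classes (log2 ratio 0.99), from 121 droplets, and in WT 0.279 against 0.105 and 0.131 (0.24). Gzma, the granzyme of NK cells, was below the sum in WT, at 0.978 against 0.305 and 1.28 (-0.70), and averaged 0.771 against 0.304 and 0.799 in VISTA KO (-0.52). Retnlg and Wfdc21, both secreted proteins of neutrophils, were among the lowest of VISTA KO at -0.59 and -0.53, and stood at 0.16 and 0.17 in WT.

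Every macrophage list compared was also found in the mixed droplets. To compare states at equal C1q, UMIs of each list are given per 100 C1q UMIs after the mean of lean neutrophil droplets was subtracted from the mixed. The Arg1 list (Arg1, the arginase of suppressive macrophages, and Hmox1, which breaks down heme) stood at 41.8 against 30.5 in WT and 41.8 against 28.8 in VISTA KO. Counted per UMI of the macrophage marker list in place of C1q, its log2 ratio was 0.162 in WT and 0.275 in VISTA KO, against 0.461 and 0.546 per C1q UMI without the subtraction. MHC class II genes (H2-Aa, H2-Ab1, H2-Eb1, Cd74, Ciita), which present antigen, stood at 133 against 105 in WT and 312 against 239 in VISTA KO. The Cxcl9 list (Cxcl9, Gpr84, Nos2, Cd40), of activated macrophages, stood at 6.50 against 5.54 and 14.5 against 11 in VISTA KO.

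The lists that follow had lower ratios to C1q, some by little. In WT, Ms4a7 and Cd72 had a ratio of 1.16 beside 1.17 for the Cxcl9 list. In VISTA KO, Mmp12 and Mmp13 had 1.28 beside 1.3 for MHC class II. The Folr2 list (Folr2, Fcrls, Lyve1, Cd163, Selenop), of tissue-type macrophages, stood at 3.59 against 3.48 in WT and 2.88 against 2.65 in VISTA KO. Mmp12 and Mmp13, matrix-degrading enzymes, stood at 1.5 against 1.42 and 1.44 against 1.13. Ms4a7 and Cd72 stood at 13.7 against 11.8 and 11.4 against 10.7, and the lipid handling list (Spp1, Gpnmb, Trem2, Lpl, Fabp5, Cd36) at 23.1 against 21.3 and 19.5 against 17.3. The reference is the whole transcriptome: genes with little RNA in lean droplets had a median ratio per C1q UMI of 1.14 in WT (4393 genes) and 1.29 in VISTA KO (2202 genes). Ratios of 1.37 and 1.45 for the Arg1 list and of 1.03 and 1.09 for the Folr2 list were the highest and lowest of these lists in WT, and in VISTA KO the lowest was 1.06 for Ms4a7 and Cd72.

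**Figure D4:**
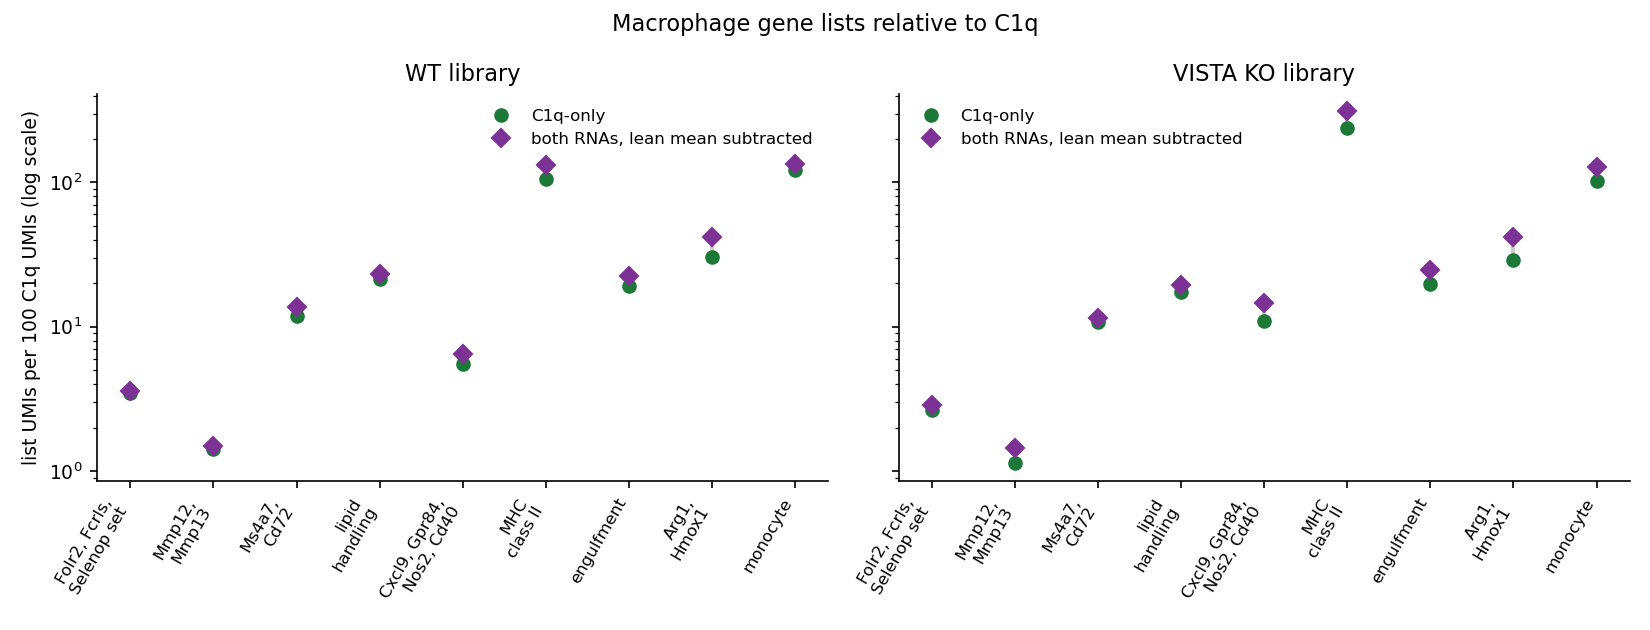
UMIs of each macrophage or monocyte gene list per 100 C1q UMIs (log scale) in C1q-only droplets (circles) and in mixed droplets after the mean of lean neutrophil droplets was subtracted (diamonds). The diamonds lie at or above the circles for every list drawn, with the widest gap for Arg1 and Hmox1, 41.8 against 30.5 in WT and 41.8 against 28.8 in VISTA KO.

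Within the lists the genes were not alike. Arg1 itself stood at 36.2 per 100 C1q UMIs against 25.7 in WT and 38.1 against 25.7 in VISTA KO, with log2 ratios of 0.49 and 0.57. Apoe, the lipid carrier that was the most abundant macrophage marker, stood at 80.5 against 63.2 and 94.0 against 78.4. Fcrls, a receptor-like protein of tissue macrophages, was lower in mixed droplets in both libraries, at 0.766 against 0.833 in WT and 0.264 against 0.356 in VISTA KO, as was the cell cycle gene Top2a at 0.111 against 0.170 and 0.0894 against 0.124. Folr2, the folate receptor, stood at 0.895 against 0.950 and 0.519 against 0.512. Of the 8 monocyte genes, Fn1, the matrix protein fibronectin, was the only one above the transcriptome median in either library, with log2 ratios of 0.21 in WT and 0.52 in VISTA KO beside medians of 0.19 and 0.36. Ly6c2, the gene behind much of the Ly6C tag, stood at 32.8 against 30.9 and 29.8 against 25.7, and Ccr2, the receptor for monocyte chemokines, at 8.54 against 7.63 and 10.7 against 8.43.

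Counted by droplet, each state was found in a larger share of mixed droplets, which are deeper. A droplet held a state where it had at least 2 UMIs of the list, and C1q-only droplets were weighted to the C1q levels of the mixed ones. The Cxcl9 list was held by 59.7% of WT mixed droplets against 36.6%, and by 79.3% against 58.0% in VISTA KO, where lean droplets held it in 2.97% and 5.56%. The Mmp12 and Mmp13 list was held by 16.3% against 9.26% and by 13.6% against 7.14%. The Folr2 list was held by 56.5% against 44.8% and by 54.6% against 41.4%. Cycling genes were held by 7.54% against 6.93% in WT, within the interval of 6.07 to 9.22, and by 6.71% against 4.40% in VISTA KO. None of the macrophage lists was held by a smaller share of them than of the weighted C1q-only droplets.

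Genes for the uptake of dying cells stood at 22.4 UMIs per 100 C1q UMIs in mixed against 19 in C1q-only droplets of WT, and at 24.9 against 19.8 in VISTA KO, ratios of 1.18 and 1.25 beside the medians of 1.14 and 1.29. Of the 19 listed genes, 15 in WT and 13 in VISTA KO had enough UMIs for the comparison with the sum, and 0 and 1 were higher. The latter was Mertk, a receptor for phosphatidylserine bridges on dying cells, at 0.323 UMIs per mixed droplet against 0.0628 and 0.141 in VISTA KO (log2 ratio 0.66) and 0.153 against 0.032 and 0.0875 in WT (0.36). Axl, a receptor of the same family, stood at 0.37 in WT and 0.28 in VISTA KO, and Tyro3, a further relative of them, had 0 UMIs in mixed droplets of both libraries. Abca1 and Abcg1, which export cholesterol after uptake, had per C1q log2 ratios of 0.36 and 0.40 in WT and 0.24 and 0.18 in VISTA KO. Pparg, a lipid sensor of macrophages, was rare, with 65 UMIs in WT and 19 in VISTA KO mixed droplets.

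Neutrophil states were read from genes low in C1q-only droplets, those that in at least 1 library had a mean of 0.5 or more UMIs in lean droplets and under 10% of it in C1q-only droplets. There were 15 such genes, 13 of them outside the choice. All 15 met the limits in VISTA KO and 8 in WT. In WT, the interval of the mixed mean lay above that of the lean mean for 10 of the 13, below it for 1 and overlapped it for 2. Of the 6 that met the limits in WT, 3 were above, 1 below and 2 overlapped. In VISTA KO it lay above for 3, below for 5 and overlapped for 5. The limits asked for a high lean mean, so the choice itself favored genes below lean droplets. This holds most for VISTA KO, where some genes met the limits only through its 54 lean droplets. G0s2 averaged 20.5 in mixed and 15.5 in lean droplets of WT, and 12.2 and 10.5 in VISTA KO. Hdc averaged 4.38 and 2.40 in WT, and 3.44 and 2.70 in VISTA KO. Cxcr2, the chemokine receptor, averaged 2.46 and 1.48 in WT, and 1.64 and 1.41 in VISTA KO. These 3 genes were thus as high or higher in mixed than in lean droplets, with overlapping intervals for Cxcr2 in VISTA KO. Hdc and Cxcr2 did not meet the limits in WT, where C1q-only droplets averaged 0.396 and 0.154 UMIs of them. This RNA was not subtracted from the mixed means.

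The genes that went below lean droplets were secreted or granule proteins. Among them Mmp9, Pglyrp1 and Lcn2 met the limits of the choice in VISTA KO only, so their place below lean droplets there was favored by the choice. Retnlg (chromosome 16, 48872608 to 48874498), a secreted protein of blood neutrophils, averaged 3.26 UMIs in mixed and 3.77 in lean droplets of WT, and 3.80 against 11.3 in VISTA KO. The VISTA KO lean mean comes from 54 droplets, of which the highest held 25.8% of its Retnlg UMIs and the 10 highest 78.5%. In WT the 10 highest of 269 lean droplets held 47.7%. Without the 10 highest droplets of each class, the Retnlg means were 2.70 in mixed and 2.05 in lean droplets of WT, and 2.82 and 2.98 in VISTA KO. Leaving out 10 takes a larger part of the lean class than of the mixed. The place of Retnlg below lean droplets thus rests on few droplets in both libraries. Retnlg was found in 48.3% of mixed, 50.7% of neutrophil-only and 63.0% of lean droplets of VISTA KO, and in 44.0%, 37.8% and 38.3% of those of WT. Mmp9, a gelatinase stored in granules, averaged 0.915 against 1.54 in VISTA KO and 1.42 against 0.922 in WT, and Pglyrp1, an antibacterial granule protein, 0.765 against 1.28 and 0.833 against 0.520. Lcn2, an iron-binding granule protein, averaged 0.679 against 1.11 in VISTA KO, where 1 lean droplet held 51.7% of the UMIs. Mmp9 was found in 49.3% of mixed and 59.3% of lean droplets of VISTA KO, and Pglyrp1 in 42.4% and 51.9%.

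**Figure D5:**
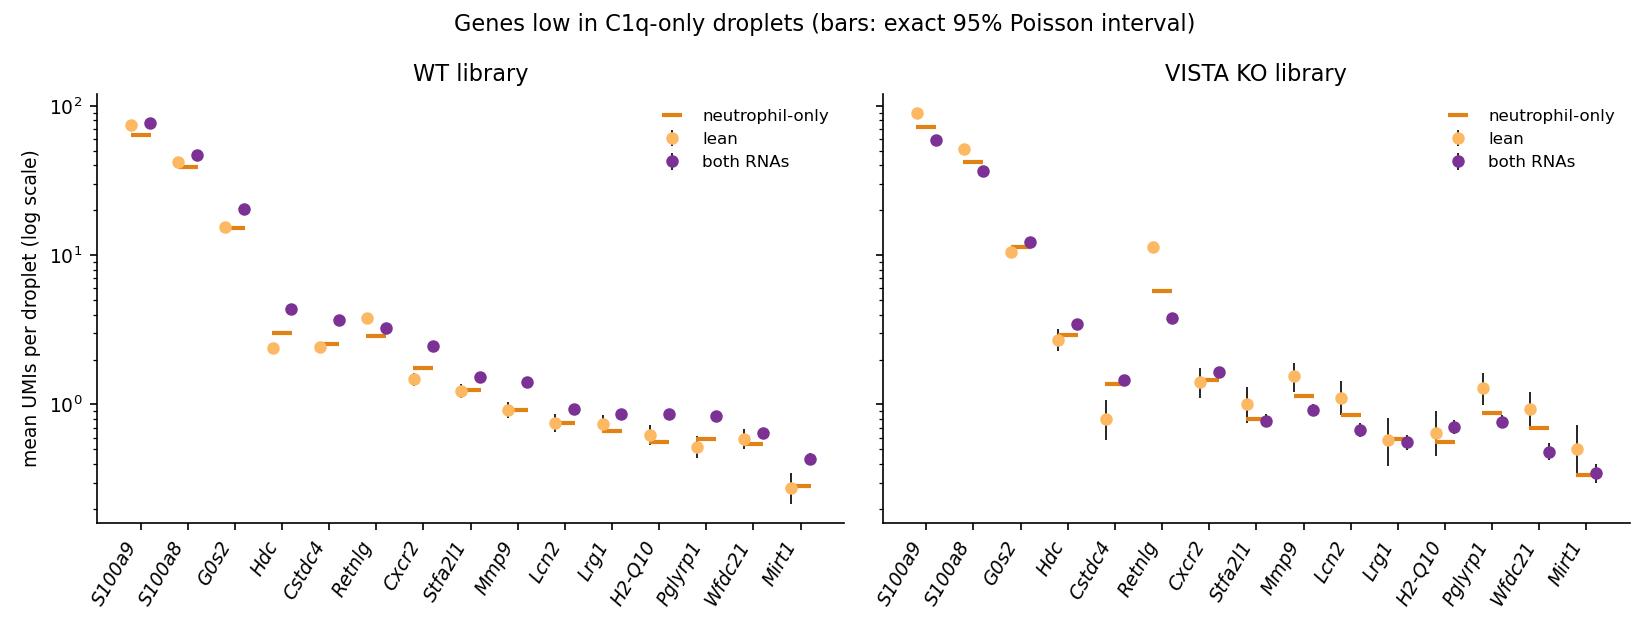
Mean UMIs per droplet (log scale) of the 15 genes low in C1q-only droplets of at least 1 library, in lean (light orange) and mixed (purple) droplets with exact Poisson intervals, and in all neutrophil-only droplets (orange dash). In WT the purple points mostly lie above the light ones, while in VISTA KO Retnlg stands at 3.80 in mixed against 11.3 in lean droplets. Of the 54 lean droplets behind the latter mean, 10 held 78.5% of the UMIs.

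Genes of early neutrophils were uneven in mixed droplets. The granule list of 9 genes was held, at 2 or more UMIs, by 33% of WT mixed droplets against 22.3% of neutrophil-only and 14.7% of lean droplets at matched S100 levels, and by 21.3% against 16.6% and 10.9% in VISTA KO. Mixed droplets are deeper, and C1q-only droplets held the list in 7.28% and 2.96%. The mean list UMIs per droplet were 1.42 in mixed, 1.02 in neutrophil-only and 0.84 in lean droplets of WT. In VISTA KO they went the other way, at 1.03, 1.16 and 1.65. Most UMIs of the list in mixed droplets were Lcn2, with 1064 in WT and 344 in VISTA KO. Cebpe, a granulocyte transcription factor, had 279 and 74 UMIs, and Prtn3, a granule protease, had 175 and 78. Both were also found in C1q-only droplets, at means of 0.127 and 0.111 in WT. Camp and Ngp, granule proteins of bone marrow neutrophils, had 2 and 6 UMIs over all 1141 WT mixed droplets and 3 and 4 over the 507 of VISTA KO. Elane and Mpo, enzymes of the earliest granules, had 11 and 3 UMIs in WT and 0 of each in VISTA KO. The 54 lean droplets of VISTA KO held 18 UMIs of Camp and 9 of Ngp, and the 269 of WT held 2 and 4. Genes of tumor and aged neutrophils ranged widely. Siglecf, a marker of some tumor neutrophils, had 21 and 10 UMIs over all mixed droplets, Il1a, a cytokine, averaged 0.201 and 0.11 UMIs, and Tnfrsf23, a decoy receptor, 0.436 and 0.327. Il1b, the inflammatory cytokine, averaged 55.6 UMIs in mixed, 32.9 in lean and 8.65 in C1q-only droplets of WT, and 46.2, 27.9 and 8.33 in VISTA KO. Cxcl2, a neutrophil attracting chemokine of the recruitment list, averaged 51.3, 32.2 and 5.38 in WT and 19.5, 12.3 and 2.04 in VISTA KO. Vegfa, the angiogenic factor, averaged 1.20, 0.112 and 0.547 in WT and 1.94, 0.185 and 0.795 in VISTA KO. Il1b and Cxcl2 were thus higher in lean than in C1q-only droplets, and Vegfa was higher in C1q-only droplets.

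Macrophage and neutrophil lists had low rank correlations within the mixed droplets. Over 18 pairs of macrophage lists per C1q UMI and neutrophil lists per S100 UMI, Spearman's rho across droplets ran from -0.03 to 0.09 in WT and from -0.003 to 0.15 in VISTA KO. The S100 and C1q sums themselves had rho of 0.16 in WT (1141 droplets) and 0.15 in VISTA KO (507 droplets), and the C1q sum followed total UMIs at 0.55 and 0.62. These are descriptions over droplets of 1 library that share depth. Divided by state, the 186 WT mixed droplets with Mmp12 or Mmp13 held 2.36 Retnlg UMIs per 100 S100 UMIs and the other 955 held 2.70. In VISTA KO the 69 such droplets held 2.11 and the other 438 held 4.23, while G0s2 stood at 13.8 and 12.6 and Hdc at 5.06 and 3.39. The 481 VISTA KO droplets with the lipid handling list held 13.2 G0s2 UMIs per 100 S100 UMIs and the 26 without it held 5.6, against 16.8 and 14.4 in WT. The droplets with and without the Folr2 list were closer, at 4.08 and 3.85 Retnlg UMIs per 100 S100 UMIs in VISTA KO and 2.71 and 2.57 in WT.

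Markers of other cell types were at low levels. At least 3 UMIs of NK cell markers were found in 2.45% of WT and 1.97% of VISTA KO mixed droplets, against 2.43% and 1.95% of C1q-only droplets. The summed NK list averaged 1.18 and 0.923 UMIs per mixed droplet. Type 2 dendritic cell markers reached 3 UMIs in 4.82% and 5.72% of mixed droplets, against 2.09% and 2.86% of C1q-only droplets. Mature dendritic cell markers did so in 0.789% and 1.78% against 0.666% and 0.709%. Fibroblast markers did so in 0.263% and 0.592% against 0.143% and 0.236%, and basophil or mast cell markers in 0.263% and 0.986% against 0.238% and 0.236%. The summed epithelial list, which would mark tumor cells, averaged 0.00701 and 0.00789 UMIs. Xcr1 and Clec9a, of type 1 dendritic cells, averaged 0.00876 and 0.0178 together. The part of these cells in the values above was not tested.

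The VISTA KO library was then compared with the WT library within the mixed droplets, on UMIs summed over the class and scaled to 1000000 (CPM). A gene counts as higher or lower past 1.5-fold with a counting interval that leaves out 1. Vsir, the targeted gene, had 157 CPM in the WT and 54.9 in the VISTA KO mixed droplets (log2 ratio -1.51, interval -1.68 to -1.36), so RNA of this gene was still counted in the KO library. Of 8597 genes, 313 were higher (3.64%) and 166 lower (1.93%) in VISTA KO. Scaled by the median gene ratio instead, 235 were higher and 211 lower. The same comparison gave 276 of 5077 genes higher (5.44%) and 141 lower (2.78%) in neutrophil-only droplets, and 410 of 10111 higher (4.05%) and 219 lower (2.17%) in C1q-only droplets. The S100 sum averaged 123 UMIs in WT and 95.6 in VISTA KO mixed droplets and the C1q sum 91.5 and 91.8. In neutrophil-only droplets the S100 sum averaged 103 and 114. A difference in makeup and a difference within a cell cannot be told apart here.

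Many of the largest differences lay on chromosome 1. Of the 10 highest and 10 lowest genes, 5 and 8 are there. The share of chromosome 1 among all compared genes was not counted, so these counts do not show an excess. Ifi202b (chromosome 1, 173962569 to 173982844), an interferon-inducible sensor of DNA, had 4.24 CPM in WT mixed droplets and 486 in those of VISTA KO (log2 ratio 6.82). Fcrla and Ppfia4 on the same chromosome stood at 5.54 and 5.57. Differences of this size were not limited to chromosome 1. Pianp and Eno2, both on chromosome 6, stood at 5.94 and 5.52, with 5.22 and 5.51 in C1q-only droplets. Ifi213 and Ifi206, relatives of Ifi202b in the same cluster of genes, went the other way, with log2 ratios of -5.60 and -3.41. Npl, Chil1 and Ctse, also on chromosome 1, stood at -5.43, -3.88 and -3.79. The comparison classes had ratios of the same sign: Ifi202b stood at 5.95 in neutrophil-only and 6.28 in C1q-only droplets, and Ifi206 at -3.36 and -3.34. Members of the Ifi202b family are related in sequence, and how reads that fit several of them were handled was not checked, so the level of each is uncertain. Fcrla, Ppfia4, Npl, Chil1 and Ctse are outside this family, and that limit does not apply to them. The WT and VISTA KO cells also carried different alleles of the congenic marker. Marker and genotype go together in these libraries. Whether the differences on chromosome 1 go with that marker or with the loss of VISTA cannot be told apart here and was not tested.

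MHC class II genes, Cxcl9 and Ccl5 were higher in VISTA KO in each of the 3 classes. All 5 MHC class II genes were higher in VISTA KO mixed droplets, led by H2-Aa with 1418 CPM in WT against 3511 (log2 ratio 1.31, with 1.43 in neutrophil-only and 1.40 in C1q-only droplets). Of the 4 Cxcl9 list genes 3 were higher, and Cxcl9, the chemokine for T cells, stood at 333 and 785 CPM (1.24). Ccl5, a chemokine for T cells and monocytes, stood at 648 and 1882 CPM (1.54), with 1.53 and 1.34 in the comparison classes. Of the 3 Folr2 list genes with enough UMIs 2 were lower, Folr2 at -0.85 and Fcrls at -1.59, and Pf4, a platelet chemokine also made by macrophages, was lower at -1.21. Among uptake genes, Mertk (1.03), Axl (0.60) and Nr1h3 (0.72), a sterol sensor, were higher and Cd36 (-0.64) and Gas6 (-1.10), a bridge to Axl and Mertk, were lower, with 16 of 19 compared and a list median of 0.15.

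On the neutrophil side, 6 of 11 compared core markers were lower in VISTA KO mixed droplets and 0 were higher. They were Cxcr2 (log2 ratio -0.63), Il1r2 (-0.67), a decoy receptor for interleukin 1, G0s2 (-0.80), Mmp9 (-0.68), Trem1 (-0.78), an activating receptor, and Stfa2l1 (-1.02), a protease inhibitor whose close copies make its own count uncertain. In neutrophil-only droplets 1 of 11 was lower and 1, Retnlg, was higher. In C1q-only droplets 8 of 11 were lower and 0 were higher, so lower levels also occurred outside the mixed droplets. C1q-only droplets are low in S100 by choice and hold few of these UMIs, with Cxcr2 means of 0.154 in WT and 0.0435 in VISTA KO. At least 20 Ly6G tags were found on 21.1% of them in WT and 9.82% in VISTA KO. The part of this difference in the lower levels was not tested. The list medians were -0.63 in mixed, -0.27 in neutrophil-only and -0.975 in C1q-only droplets, beside a median of 0.06 over all mixed genes. The chemokines Cxcl2 and Cxcl3 were lower in mixed droplets at -1.44 and -1.55, in neutrophil-only droplets at -1.24 and -1.14 and in C1q-only droplets at -1.34 and -1.36. Cxcr4, a receptor of aged neutrophils, was higher at 0.72, with 0.83 and 0.62 in the comparison classes, and Vegfa was higher at 0.65. Isg15, an interferon-stimulated gene, was lower at -1.12, the only one of 9 in its list past the limit.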

How the data were processed

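The deposited matrices contain raw UMI counts for 32285 genes and 3 antibody tags in each barcode. Cell Ranger 5.0.0 made them, per the file headers. The submitters' processing notes name mm10 and Seurat 4.0, and the sources used here do not say how Seurat was used or how the authors called cells. A barcode was kept with 200 or more genes, 500 or more gene UMIs and no more than 10% mitochondrial UMIs. Classes, means, ratios and exact intervals (Clopper-Pearson, Poisson and conditional binomial, 95%) were computed from the counts with Python 3.11.15, numpy 2.4.6, scipy 1.17.1 and pandas 2.3.3. VISTA KO over WT used CPM with a pseudocount of 1 UMI and genes with at least 100 UMIs. The methods were tested on simulated data. Named genes are members of the 35 gene lists, genes past 1.5-fold in both libraries, and the 10 highest and 10 lowest VISTA KO over WT ratios found in at least 5% of mixed droplets, leaving out mitochondrial, ribosomal and sex-linked transcripts and unnamed gene models. The highest and lowest genes of each library against the sum, and the genes low in C1q-only droplets, were named after their values were seen. The members, lists and comparisons were chosen with earlier results of these data known. Gene positions are from RefSeq for GRCm38.p6, the assembly of mm10. With 1 RNA library per group no p-values were computed. Alternatives covered the UMI limits, barcode filters, minimum counts, scaling, depth and comparison classes, and 5 were added after the data had been seen.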

Additional observations from a re-analysis of the deposited data

Results flagged for a closer look

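Retnla went opposite ways in the 2 libraries against the sum of neutrophil-only and C1q-only droplets. Its log2 ratio in mixed droplets was -1.11 in WT and 1.52 in VISTA KO. The difference between the libraries was not tested, and each value rests on few droplets, since Retnla was found in 55 WT and 16 VISTA KO mixed droplets and 10 of them held 74.1% and 96.8% of the UMIs.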

How the results depend on the processing

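No paired analysis was possible because there was 1 RNA library for WT and 1 for VISTA KO, with no test. Of the main results' 118 alternative values, 50 stayed within the spread used and 68 moved. No log2 value changed sign, while the genes above and below the sum changed places in number in the depth window. Of 80 values for single gene lists per C1q UMI, 2 moved. The cause of these moves was not tested. Values are given for WT, then VISTA KO, unless 1 library is named. The share of droplets with both RNAs (11.2% and 3.35%) was 13.3% and 4.09% at a limit of 5 UMIs, 8.68% and 2.54% at 20 UMIs, 12% and 3.8% with a stricter barcode filter, and 10.5% in WT after thinning. The genes above the sum (43 and 82) numbered 92 and 228 at 5 UMIs, 11 and 30 at 20 UMIs, 180 and 599 with at most 2 UMIs of the other gene sum in the comparison classes, 323 and 556 with a minimum of 20 UMIs, 2 and 0 in droplets of 5000 to 20000 UMIs, 5778 and 4692 with lean droplets, 13 and 11 after centring on the median gene, and 21 in WT with the stricter filter. The genes below the sum (3 and 2) numbered 51 and 42 with a minimum of 20 UMIs, 4065 and 2314 in the depth window and 11 and 12 after centring. They numbered 8 in WT with the stricter filter, and in VISTA KO 6 at 5 UMIs, 5 with at most 2 UMIs of the other sum and 11 with lean droplets. The log2 ratio of mean UMIs to the sum (0.120 and 0.200) was 0.169 and 0.257 at 5 UMIs, 0.039 and 0.141 at 20 UMIs, 0.122 and 0.203 with no filter, 0.011 and 0.162 with the stricter filter, 0.237 and 0.340 with at most 2 UMIs of the other sum, 0.116 and 0.198 with at least 3 neutrophil marker UMIs, and 0.638 and 0.679 with lean droplets. The Arg1 list per C1q UMI (log2 0.461 and 0.546) was 0.515 and 0.568 with at most 2 UMIs of the other sum, 0.162 and 0.275 per marker list UMI, 0.437 in WT at 5 UMIs and 0.504 in VISTA KO at 20 UMIs. Retnlg per S100 UMI against neutrophil-only droplets (log2 -0.080 and -0.332) was -0.308 and -0.769 per marker list UMI, -0.278 and -1.005 against lean droplets, -0.187 at 20 UMIs and -0.208 with the stricter filter in WT, and -0.580 in VISTA KO with at most 2 UMIs of the other sum. The log2 ratio of median Ly6G tags to C1q-only droplets (3.338 and 3.143) was 3.492 and 3.087 at 5 UMIs, 3.233 and 2.948 at 20 UMIs, 2.380 and 2.025 as a share of the 3 tags, and 3.508 in WT with at most 2 UMIs of the other sum. With a minimum of 20 UMIs, 501 genes were higher and 284 lower in VISTA KO mixed droplets. Counting error is wide for genes near 100 UMIs and for the 54 lean droplets of VISTA KO.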
